A study of Mus musculus with 15 samples.

Results

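The miR-30 family was described in mouse plasma through 9 rows of a microRNA (miRNA) count table that holds 1205 rows. They were chosen by name: the 5p products mmu-miR-30a-5p, mmu-miR-30b-5p, mmu-miR-30c-5p, mmu-miR-30d-5p and mmu-miR-30e-5p, and the 3p products mmu-miR-30a-3p, mmu-miR-30b-3p, mmu-miR-30d-3p and mmu-miR-30e-3p. The family was picked with the difference between the groups already known, so that difference is given below as a description, and no p-value is printed for a member. One group was wild-type male C57BL/6J mice that had undergone cecal ligation and puncture (CLP), which lets gut bacteria into the abdomen and models polymicrobial sepsis (9 libraries). It was set against wild-type male C57BL/6J mice with a sham operation (6 libraries). Blood was taken 24 h after surgery in both groups, and RNA came from 100 ul of platelet-free plasma, so the reads are extracellular RNA with no single cell of origin. The labels do not say whether each library is a separate animal, give no age, and put no treatment besides surgery on either group.

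A miRNA is cut from a hairpin precursor as a pair of short RNAs, the 5p and the 3p arm, and bases 2 to 8 of the arm that is loaded into an Argonaute protein, called the seed, choose most of its target messenger RNAs. The miR-30 family is made in many tissues, with high levels known in kidney, heart and other epithelial and muscle cells, and its 5p arms are the usual guides. The 5p arms share a seed and differ in their later bases, by which miR-30a, 30d and 30e are close relatives and miR-30b and 30c another pair. Their targets in mammals include autophagy and epithelial-to-mesenchymal transition genes.

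RefSeq (GRCm38.p6) gave mature sequences for 5 of the 9 members. They are shown so that the bases the members share, and those in which they differ, can be seen. All are written 5′ to 3′ with the seed in capitals.
miR-30a-5p: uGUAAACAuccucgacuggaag
miR-30e-5p: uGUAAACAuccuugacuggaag
miR-30c-5p: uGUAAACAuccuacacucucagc
miR-30a-3p: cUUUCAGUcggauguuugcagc
miR-30e-3p: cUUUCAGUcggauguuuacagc
The 5p sequences of miR-30a and miR-30e are identical apart from C13U (miR-30a first, counted from 1 at the 5′ end), and their 3p sequences are identical apart from G18A. By contrast miR-30c-5p shares the first 12 bases with each of them and differs at 5 of 22 compared positions. Of 1679 mature mouse miRNAs in the RefSeq table, 4 carry the 5p seed GUAAACA: these 3 members and miR-384-5p. The 3p seed UUUCAGU occurs in 2, miR-30a-3p and miR-30e-3p. Both counts leave out the arms of miR-30b and miR-30d, which had no sequence there.

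The precursors lie in neighbouring pairs. Mir30e (chr4:120772606-120772697, minus strand, GRCm38) and Mir30c-1 (chr4:120769534-120769622, minus strand) lie 2983 bases apart in intronic sequence of Nfyc, which encodes a subunit of the transcription factor NF-Y. Mir30a (chr1:23272269-23272339, plus strand) lies outside other annotated genes, 19361 bases from Mir30c-2 (chr1:23291701-23291784, plus strand), which lies in an exon of the long noncoding RNA gene Gm27028. Both Mir30c genes give the same miR-30c-5p, so its reads cannot be assigned to either. Mir30b and Mir30d are 3697 bases apart on chromosome 15, minus strand, and Mir30d lies in an exon of the long noncoding RNA gene Gm20732. The hairpins of the Nfyc pair are shown because the mature 5p sequences they hold, in capitals, differed in how far they stood apart between the groups.
Mir30e: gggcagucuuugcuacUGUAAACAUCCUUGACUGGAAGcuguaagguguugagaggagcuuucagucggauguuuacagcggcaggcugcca
Mir30c-1: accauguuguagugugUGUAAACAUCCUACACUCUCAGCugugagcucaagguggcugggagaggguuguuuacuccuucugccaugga

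Levels are in CPM, counts scaled to a common library size, after TMM adjustment, which assumes that most miRNAs do not differ. Library totals ran from 6181056 to 13576482 counts in CLP and from 5274676 to 10702028 in sham. Adapters ligate to some end sequences better than others, so CPM ranks reads and not molecules between members. CLP 5 lay nearest to sham on the first principal component, with a score of -1.73, the remaining CLP libraries scoring 7.94 or more. Plasma can carry RNA of red cells, platelets, liver and muscle, and their markers were read in every group. The summed red cell list (5 rows tested, 0 higher, with miR-451a alone lower) was 82881 to 380243 CPM in CLP and 158615 to 457350 in sham. The summed platelet list (5 rows tested, with miR-24-3p and miR-21a-5p higher and miR-191-5p lower) was 27948 to 39999.9 CPM in CLP and 45574 to 62375 in sham, with no overlap. In sham miR-191-5p was the largest of these rows, with a mean of 37342 CPM against 5450 in CLP. Means were higher in CLP for miR-24-3p (19713 against 11004.5 CPM in sham), miR-21a-5p (5231 against 2147) and miR-223-3p (371 against 290). For miR-126a-3p the mean was 2354 CPM in CLP and 3141 in sham. The liver marker miR-122-5p was 1871 to 79178 CPM in CLP, the highest being CLP 1, and 2955 to 14605 in sham. The 3 muscle miRNAs summed to 4975 to 40576 CPM in CLP and 409 to 6686 in sham. Higher in CLP were miR-1a-3p (mean 18065 CPM against 1081 in sham) and miR-206-3p (1616 against 210). The third, miR-133a-3p, did not pass (1283 against 882). The part of red cells, platelets, liver and muscle in the values below was not tested.

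The 5p arms made up nearly all miR-30 reads. In plasma, fewer cells releasing a miRNA and less of it per cell cannot be told apart. Together they took 3.0% ± 0.302 (SD, n = 9) of all miRNA counts in CLP and 4.47% ± 0.311 (n = 6) in sham, while the 4 measured 3p arms took 0.0471% ± 0.0113 in CLP and 0.0464% ± 0.00513 in sham. In CPM the summed 5p arms were 28146 at the lowest, 31138 at the median and 35548 at the highest in CLP, against 36170, 41779 and 44765 in sham. Every CLP library was below every sham library for this sum. The means of the sum differed by -8872 CPM. By size most of that difference came from the abundant miR-30d-5p (64.0%) and from miR-30c-5p (26.0%), while miR-30e-5p gave 9.14% and miR-30b-5p 4.03%, and miR-30a-5p ran the other way.

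**Figure D1:**
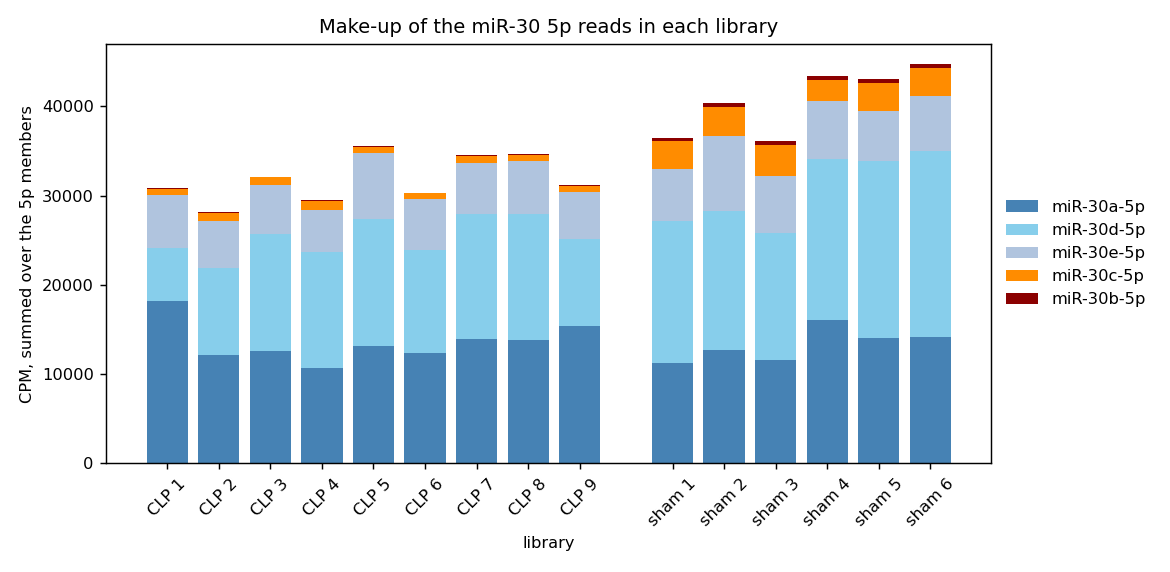
Summed level of the 5p members (y axis, CPM after TMM scaling) in each of the 9 CLP and 6 sham libraries (x axis), with 1 colour per member. The CLP bars reach 28146 to 35548 CPM, all under the sham bars, and the miR-30c-5p and miR-30b-5p segments are thin in CLP.

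The order of the members was the same in all 6 sham libraries: miR-30d-5p, miR-30a-5p, miR-30e-5p, miR-30c-5p, miR-30b-5p, miR-30a-3p, miR-30e-3p, miR-30d-3p and miR-30b-3p. In CLP miR-30b-5p was below miR-30a-3p in 9 of 9 libraries and below miR-30e-3p in 8 of 9. At the top, miR-30d-5p exceeded miR-30a-5p in 5 of 9 CLP libraries and in 6 of 6 sham libraries. In CLP the means were 13573 ± 2183 CPM for miR-30a-5p and 11742 ± 2800 for miR-30d-5p (SD, n = 9). Within a CLP library the log2 ratio of miR-30d-5p to miR-30a-5p was -0.24 ± 0.588, so neither was above the other throughout. The miR-30e-5p level was lower than both in every library but CLP 1, where miR-30e-5p (5938 CPM) was just above miR-30d-5p (5895 CPM). The scarce miR-30d-3p and miR-30b-3p came last in all 15 libraries.

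The members differed in how far CLP and sham stood apart, and the largest falls were those of miR-30b-5p and miR-30c-5p. With edgeR's quasi-likelihood F test, adjusted by Benjamini-Hochberg over 426 tested rows, 3 of the 9 members were lower in CLP, 0 were higher and 6 did not pass. Over all tested rows 47.2% passed, 21.8% lower and 25.4% higher in CLP. All 9 members passed the abundance filter. The median log2 change was -0.03 over the 9 members, -0.57 over the 5p arms and 0.17 over the 3p arms, beside 0.11 over all tested rows. Scaling by library size alone moved that last median to -0.12, so each change is relative to the scaling. Since the rule drew on this contrast, these counts describe the family and carry no further weight.

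**Figure D2:**
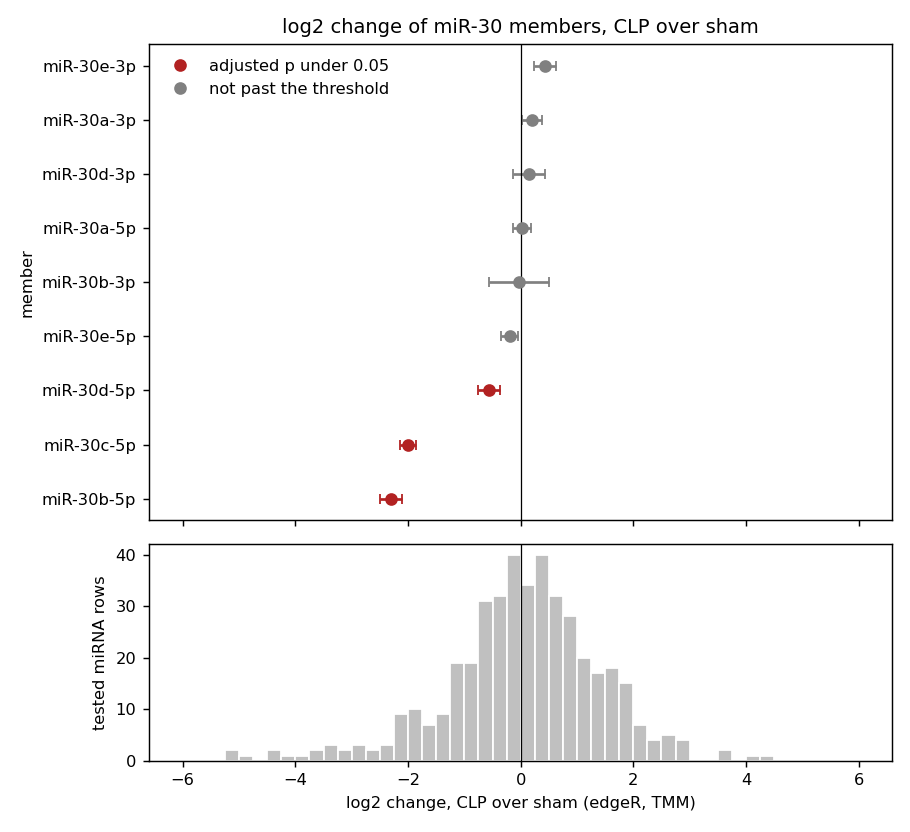
Upper panel, log2 change of each of the 9 members, CLP over sham (x axis), with its standard error; red marks members past the adjusted threshold of 0.05. Lower panel, the same quantity for all 426 tested rows as a histogram. miR-30b-5p (-2.30) and miR-30c-5p (-2.0) lie in the low tail. The other 7 lie nearer the middle, among them miR-30d-5p (-0.57), which is also past the threshold.

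The pair miR-30b-5p and miR-30c-5p fell furthest. For miR-30c-5p the lowest, median and highest levels were 656, 739 and 942 CPM in CLP, against 2364, 3101 and 3537 CPM in sham. The CLP mean of 770 ± 93.4 CPM (SD, n = 9) was 0.250 of the sham mean of 3080 ± 392 CPM (n = 6). All 9 CLP libraries lay well below all 6 sham libraries, and the spread relative to the mean was alike, 12.1% in CLP and 12.7% in sham. The log2 change was -2.0 ± 0.15 (SE), the 32nd lowest of 426.

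For miR-30b-5p the levels were 56.9, 85.2 and 138 CPM in CLP, against 378, 452 and 490 CPM in sham. The CLP mean of 91.1 ± 28.9 CPM (SD, n = 9) was 0.203 of the sham mean of 449 ± 38.3 CPM (n = 6). Again the groups did not overlap, which held for 11.3% of tested rows in this direction, and for 8.45% in the other, where no member stood. The highest CLP values were those of CLP 1 and CLP 2 (138 and 137 CPM). The log2 change was -2.30 ± 0.20 (SE), the 22nd lowest of 426. Its spread in CLP, 31.8% of the mean, was wider than the 8.54% in sham. Fractional counts, which arise when a read fits several miRNAs, occurred for miR-30b-5p in 12 of 15 libraries and for miR-30c-5p in 5, so an unknown part of their reads was shared. With both rows added before the fit, the change of the sum was -2.08 ± 0.14, a value that does not depend on how reads were divided between them. It still depends on reads shared with other rows. In sham 1, for example, miR-30b-5p had 2733.33 counts and miR-30c-5p a whole count of 22301. Most of the sum was miR-30c-5p.

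Among the near-identical miR-30a, 30d and 30e, miR-30d-5p alone passed. Its levels were 5895, 13099 and 14277 CPM in CLP, against 14178, 17008 and 20850 CPM in sham. In 8 of 9 CLP libraries it was below every sham library; CLP 5 was not. CLP 1 stood far below the rest, followed by CLP 2 and CLP 9 (9758 and 9808 CPM). The log2 change was -0.57 ± 0.19 (SE), smaller than those of miR-30b-5p and miR-30c-5p. It no longer passed with the haemolysis index as a covariate (-0.49 ± 0.23) or with no abundance filter (-0.56). With that covariate fewer of all 426 tested rows passed too, 160 in place of 201. The index, log2 of the red cell miRNA miR-451a over miR-23a-3p, was -1.41 ± 0.993 in CLP and -0.44 ± 0.670 in sham. Of the red cell rows, miR-451a alone passed (log2 change -1.28). The joint row of miR-486a-5p and miR-486b-5p was at -0.70, miR-144-3p at -0.10, miR-16-5p at 0.09 and miR-144-5p at 0.49. The part of red cells in the lost call was not tested.

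The level of miR-30a-5p was 10627, 13155 and 18189 CPM in CLP, against 11209, 13343 and 16073 CPM in sham. The ranges overlapped, and CLP 1 held the highest value. The change was 0.03 ± 0.16 (SE), not past the threshold, and its sign was negative under several other settings, library size scaling among them (-0.20). For miR-30e-5p the levels were 4690, 5646 and 7373 CPM in CLP, against 5697, 6299 and 8371 CPM in sham. These ranges also overlapped. The change was -0.19 ± 0.15 (SE) and did not pass, although with library size scaling alone it did (-0.42). With the haemolysis index as a covariate it was -0.075. Fractional counts occurred here too, for miR-30a-5p in 12 of 15 libraries and for miR-30d-5p and miR-30e-5p in 8 each. For miR-30a-3p and miR-30e-3p they occurred in 6 each. Summed before the fit, miR-30a-5p, miR-30d-5p and miR-30e-5p had 27154 to 34806 CPM in CLP and 32185 to 41210 CPM in sham. The change of this sum was -0.34 ± 0.16 and did not pass.

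**Figure D3:**
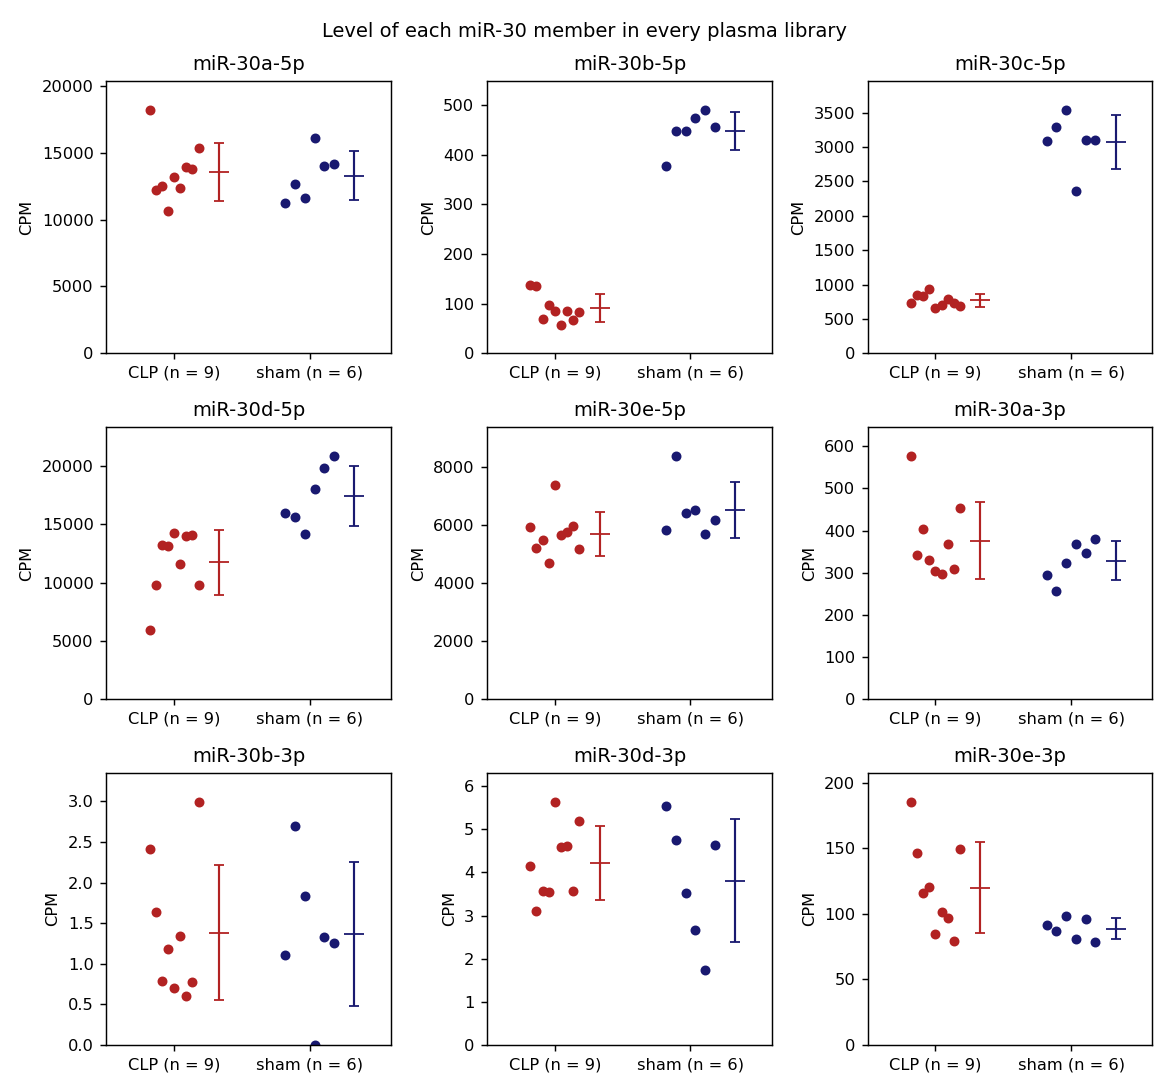
Level (y axis, CPM after TMM scaling, from 0) of each of the 9 members in the CLP libraries (red, n = 9) and the sham libraries (dark, n = 6); the bar beside the points is the mean ± SD. The groups are apart for miR-30b-5p and miR-30c-5p and overlap in the other 7 panels.

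Ratios within a library do not depend on how libraries are scaled against each other. The log2 ratio of miR-30c-5p to its Nfyc neighbour miR-30e-5p was -3.49 at the lowest, -2.93 at the median and -2.32 at the highest in CLP, against -1.46, -0.96 and -0.86 in sham. All CLP values were below all sham values, and the means differed by -1.81. The ratio of miR-30c-5p to miR-30a-5p, whose precursor adjoins Mir30c-2, was likewise lower, at -4.13 ± 0.348 in CLP (SD, n = 9) and -2.11 ± 0.371 in sham (n = 6). Both ratios use miR-30c-5p reads pooled over Mir30c-1 and Mir30c-2, so the ratio within either precursor pair was not measured.

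For the chromosome 15 pair, the log2 ratio of miR-30b-5p to miR-30d-5p ran from -7.73 to -5.41 (median -7.36) in CLP and from -5.52 to -4.98 (median -5.30) in sham. CLP 1 was the highest CLP library and lay within the sham range. Ratios of members alike in sequence differed less between the groups. These differences, like those of the neighbours, mostly restate the log2 changes above. Reads shared between similar rows may also enter them, which was not tested. The ratio of miR-30b-5p to miR-30c-5p was -3.13 ± 0.416 in CLP and -2.77 ± 0.260 in sham. That of miR-30e-5p to miR-30a-5p was -1.25 ± 0.232 in CLP and -1.03 ± 0.283 in sham, and the ranges overlapped for both. The ratio of miR-30d-5p to miR-30a-5p was -0.24 ± 0.588 in CLP and 0.39 ± 0.157 in sham, and it overlapped too.

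**Figure D4:**
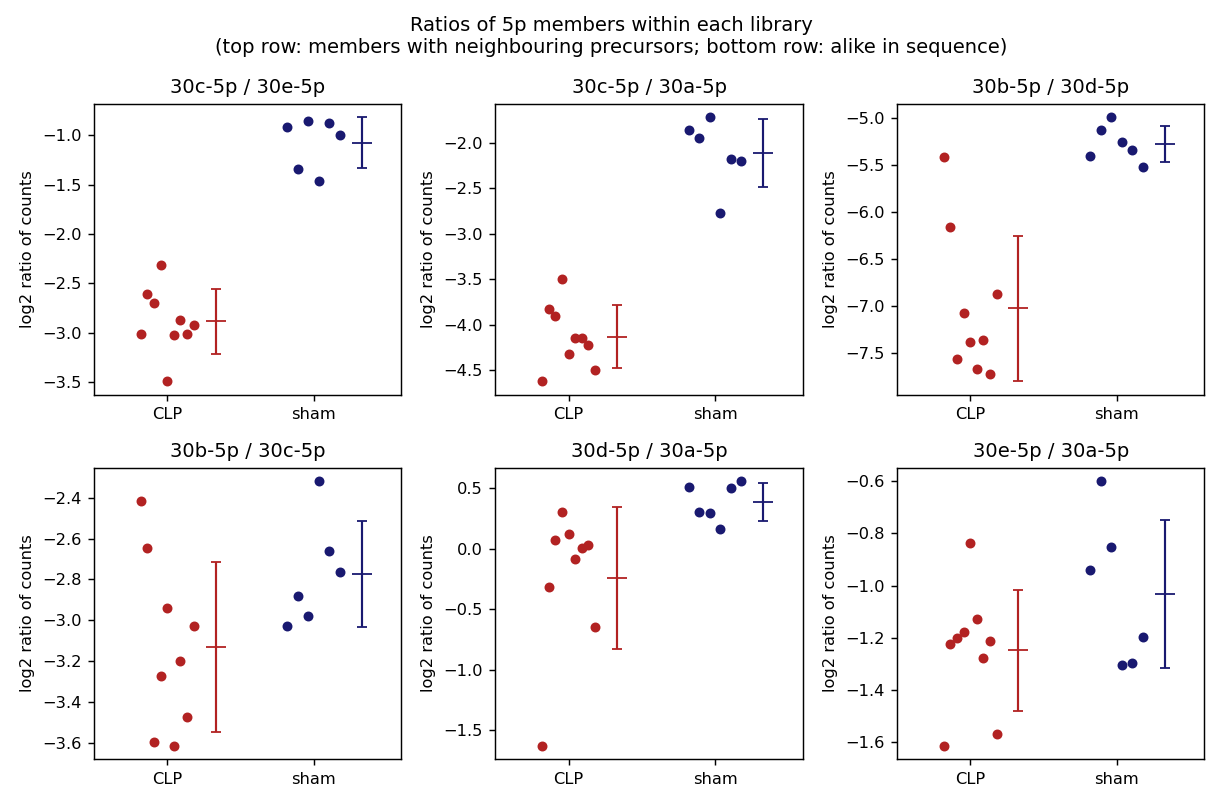
Log2 ratio of expected counts of pairs of 5p members within each library (y axis; each panel has its own range), for CLP (red, n = 9) and sham (dark, n = 6), with mean ± SD. In the top row, neighbours in the genome, the miR-30c-5p ratios do not overlap between groups and the miR-30b-5p ratio overlaps through CLP 1; in the bottom row, members alike in sequence, all 3 ratios overlap.

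The 3p arms were not past the threshold. For miR-30a-3p the levels were 297, 342 and 577 CPM in CLP, against 256, 336 and 380 CPM in sham, a log2 change of 0.20 ± 0.18 (SE). For miR-30e-3p they were 79.4, 116 and 185 CPM in CLP, against 78.7, 89.1 and 98.2 CPM in sham. In 6 of 9 CLP libraries miR-30e-3p was above every sham library, and the others lay inside the sham range. Its change of 0.44 ± 0.19 was the highest of the 9 members, and CLP 1 held the top value for both of these 3p arms. Without CLP 1 the changes were 0.05 for miR-30a-3p and 0.29 for miR-30e-3p. With library size scaling alone miR-30e-3p was at 0.20.

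The remaining 3p arms were scarce. miR-30d-3p had 3.10, 4.14 and 5.64 CPM in CLP, against 1.74, 4.07 and 5.53 CPM in sham, a change of 0.15 ± 0.28 (SE). miR-30b-3p had 0.600, 1.18 and 2.99 CPM in CLP, against 0, 1.29 and 2.69 CPM in sham, a change of -0.03 ± 0.54. It was not read in sham 4, where a count of 0 allows up to 0.502 CPM. Its highest count in any library was 21.

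The ratio of the arms separated the groups for miR-30b only. Since miR-30b-3p had at most 21 counts in a library and a change of -0.03 ± 0.54 (SE), this ratio mostly restates the lower miR-30b-5p. Its log2 ratio of 5p to 3p was 4.77, 6.29 and 7.03 in CLP, against 7.34, 8.39 and 12.5 in sham, with no overlap, although the sham maximum is sham 4 with its 0 count. For miR-30a the ratio was 5.19 ± 0.202 in CLP (SD, n = 9) and 5.34 ± 0.173 in sham (n = 6). For miR-30e it was 5.61 ± 0.515 in CLP and 6.19 ± 0.261 in sham, and for miR-30d 11.4 ± 0.488 in CLP and 12.2 ± 0.721 in sham. These 3 overlapped between the groups, and the means differed by -0.15 for miR-30a, -0.58 for miR-30e and -0.82 for miR-30d. The 5p arm was the more abundant in each hairpin in every library.

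Rows of the family outside the 9 were rare. miR-30c-2-3p, from the hairpin on chromosome 1, had 4.29 ± 1.92 CPM in CLP (SD, n = 9) and 3.97 ± 2.10 CPM in sham (n = 6), a log2 change of 0.11 ± 0.43 (SE). It was the single one of 4 such rows to be tested (0 of 1 passed). miR-30c-1-3p had at most 9 counts in a library. miR-30f, annotated on the strand opposite Mir30e, had 1 count in 1 CLP library and 0 in sham. The seed mate miR-384-5p had reads in 5 of 9 CLP libraries (at most 6 counts) and in 1 of 6 sham libraries (at most 1 count).

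Whether members varied together from library to library was asked within each group, which does not use the difference between groups. There were 14 pairs, 10 among the 5p arms and 4 between the arms of a hairpin, in both groups, 28 relations in all. None passed after Benjamini-Hochberg adjustment (exact two-sided permutation test of Pearson's r, smallest adjusted p = 0.305). In sham (n = 6) a single pair could pass alone only if no other ordering of its values gave as large an r. The sham test could therefore find little. Unadjusted, 2 pairs in CLP and 1 in sham were under 0.05 by Pearson and 0 by Spearman. The 14 values of r ran from -0.71 to 0.77 in CLP (median 0.08) and from -0.78 to 0.74 in sham (median -0.11). Over all 90525 pairs of tested rows the median r was 0.0042 in CLP and 0.024 in sham. All these values share library scaling, and fractional reads are shared between similar rows.

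The 3 pairs under 0.05 before adjustment were as follows. In CLP the arms of miR-30a varied in the same direction (r = 0.77, exact permutation p = 0.0163, adjusted 0.305; rho = 0.58, exact permutation p = 0.108, adjusted 0.622; n = 9). Without CLP 1 and CLP 4, the farthest from the median of miR-30a-5p, r was 0.54, and without CLP 1 alone it was 0.47. In CLP miR-30c-5p ran against its neighbour miR-30e-5p (r = -0.71, exact permutation p = 0.0267, adjusted 0.305; rho = -0.53, exact permutation p = 0.148, adjusted 0.622; n = 9), with r at -0.45 without CLP 2 and CLP 4. In sham miR-30c-5p ran against miR-30a-5p (r = -0.78, exact permutation p = 0.0486, adjusted 0.305; rho = -0.43, exact permutation p = 0.419, adjusted 0.783; n = 6), with r at -0.996 without sham 1 and sham 4, over 4 libraries, and at -0.44 without sham 4 alone.

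The miRNAs most like each 5p member were sought among 242 other rows with a mean of at least 10 CPM, by Pearson's r of log2 CPM deviations from the group means over 15 libraries. For miR-30d-5p they were miR-125a-3p (0.93) and miR-501-3p (0.92). For miR-30a-5p they were the joint row of miR-101a-3p and miR-101c (0.82) and miR-203-3p (0.76). For miR-30e-5p they were miR-421-3p (0.74) and miR-16-5p, abundant in red cells (0.73). For miR-30c-5p they were miR-363-3p (0.72) and the lymphocyte miRNA miR-150-5p (0.64), and for miR-30b-5p miR-3535 (0.68) and miR-183-5p (0.64). These are the highest of many correlations and are given as a description. Removing the group means takes out the CLP difference, so the log2 changes of these rows were not part of the choice. Of the rows most like miR-30c-5p, miR-363-3p was at 0.55 ± 0.24 (SE) and miR-150-5p at -0.82 ± 0.33. Of those most like miR-30b-5p, miR-3535 was at 0.65 ± 0.49 and miR-183-5p at -1.45 ± 0.20.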

How the data were processed

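The deposited table holds expected counts per mature miRNA, not scaled for depth, in 15 columns matched to libraries by label. Its name gives the exceRpt small RNA pipeline, and mm10 is the build that the submitters' processing notes name. The aligner, trimming and miRNA release are not given in the sources used here. Libraries came from a ligation-based kit with gel selection, per the labels' protocols, so amounts are relative.

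Counts were rounded and tested with edgeR 4.0.16 in R 4.3.3 (filterByExpr, TMM, robust quasi-likelihood F test, two-sided, no covariate, threshold 0.05). The SE is the size of the log2 change over the square root of F. Levels use unrounded counts, ratios a pseudocount of 0.5, and log2 CPM for correlations a prior count of 2. The fit was tested on simulated data. P-values measure the spread between these libraries, which may be technical. Replicates were not duplicates: chi-square over degrees of freedom was at least 373 between CLP libraries and 235 between sham libraries. Floors cover counting error only.

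The members, lists and pairs were chosen with earlier results of these data known. All 9 members were named, as were other family rows, seed mates, the 2 rows most like each 5p member, and markers. miR-197-3p of the platelet list had no row in the counts. Alternatives were DESeq2 1.42.0, limma 3.58.1 (voom with quality weights), other scalings and filters, the haemolysis index as a covariate, a replicate block, summed rows, and leaving out each library. Leaving out CLP 1 and CLP 5 together was added after seeing the data. Precursor positions came from GENCODE M21 (GRCm38).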

Additional observations from a re-analysis of the deposited data

Results flagged for a closer look

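In 42 sets of values of a group (9 members and 12 ratios, in CLP and in sham), 5 held a library far from the others by Dixon's test. Chance would flag about 5% of such sets. miR-30e-5p was 7373 CPM in CLP 5, where the other CLP libraries had 4690 to 5957 CPM, and 8371 CPM in sham 2, where the other sham libraries had 5697 to 6504 CPM. These libraries also held the highest red cell sums of their groups (380243 CPM in CLP 5 and 457350 CPM in sham 2), and the part of red cells in this value was not tested.

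CLP 1 was far from the other CLP libraries in the log2 ratio of miR-30d-5p to miR-30a-5p (-1.63, others -0.65 to 0.30) and to miR-30e-5p (-0.010, others 0.90 to 1.48). CLP 1 also held 79178 CPM of the liver miRNA miR-122-5p, whose part was not tested. The log2 ratio of miR-30b-5p to miR-30b-3p was 12.5 in sham 4 (others 7.34 to 8.45), where miR-30b-3p had 0 counts and the pseudocount sets the ratio.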

How the results depend on the processing

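The calls of miR-30b-5p and miR-30c-5p held under every alternative run, with log2 changes from -2.53 to -2.26 and from -2.23 to -1.98. Their summed row was at -2.08 and passed too. The call of miR-30d-5p held when any 1 library was left out (-0.68 to -0.53) and ended with no filter (-0.56) and with the haemolysis covariate (-0.49). The summed row of miR-30a-5p, miR-30d-5p and miR-30e-5p did not pass (-0.34). The call of miR-30e-5p appeared with library size scaling (-0.42). Members near 0 changed sign. miR-30a-5p was -0.042 with DESeq2 or its size factors, -0.20 with library size scaling and -0.088 with a mean of at least 10 CPM. It was -0.075 with replicates 1 to 6 unpaired, -0.046 without CLP 1 and CLP 5, and -0.099 to 0.055 on leaving out 1 library. miR-30b-3p was 0.13 with limma voom and -0.36 to 0.27 on leaving out 1 library. With library size scaling miR-30a-3p was -0.033 and miR-30d-3p -0.063, and miR-30d-3p was -0.0041 to 0.20 on leaving out 1 library. Where scaling was not the alternative, the cause was not tested.

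Over all tested rows the count past the threshold was 201, and 307 with no filter, where 1182 rows were tested. It was 160 with the haemolysis covariate and 184 to 213 on leaving out 1 library. With library size scaling it split into 90 higher and 126 lower, in place of 108 and 93. Same-numbered CLP and sham libraries did not deviate together (r from -0.15 to -0.03). That gave no sign that the numbers pair them, but it does not settle the matter. With the replicate block over replicates 1 to 6 the count was 152 and miR-30a-5p was -0.085, and without the block over the same 12 libraries 179. No correlation of members passed under any alternative run, each library left out in turn included. With a sham library left out, a single sham pair could not pass alone at any r. With library size scaling r of miR-30c-5p and miR-30e-5p in CLP was -0.37.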
